A study of Arabidopsis thaliana with 14 samples.

Results

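The genes described here encode proteins of the small (40S) subunit of the cytosolic ribosome of Arabidopsis thaliana: 44 loci that belong to 18 ribosomal proteins. They were chosen by a list of locus identifiers, with no filter on measured values, though earlier results of these data were known. They make up 44 of the 37899 RefSeq genes on the nuclear chromosomes. Poly(A) clusters were counted for a gene when they lay on its strand within its TAIR10 span or up to 200 nt beyond its 3′ end. Of the 44 genes, 43 held a cluster in at least 1 of the 4 poly(A) tables and 41 held one in every table.

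The series compares wild-type Col0 seedlings with the cpsf70 mutant, which carries a defect in CPSF70, the longer protein made from the CPSF30 locus. CPSF70 belongs to the cleavage and polyadenylation machinery and has a YTH domain, which binds N6-methyladenosine (m6A). Poly(A) site libraries came from 12-day seedlings of Col0 and of cpsf70, 2 libraries per genotype. CLIP (crosslinking and immunoprecipitation) peaks came from 12-day seedlings of a CPSF70 overexpression line, pulled down with an anti-FLAG antibody, and m6A peaks from 14-day Col0 seedlings, with 2 replicates each. The sources used here give neither the mutant allele nor the promoter of the overexpression line. Whether replicates were grown apart is not stated in the labels, so p-values reflect the spread of the samples at hand, which may be only technical.

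The 40S subunit binds the messenger RNA and decodes it. Its platform and the path of the messenger are lined by proteins such as S2, S3a and S14, its body holds S4, S6, S8, S9, S11, S13 and S24, and its head holds S5, S10, S16, S18, S19, S20 and S28. In Arabidopsis nearly every cytosolic ribosomal protein is encoded by a small family of paralogous genes, whose transcripts are abundant in growing tissue. Loss of single paralogues often gives pointed leaves, slow growth or embryo defects.

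The deposited values are TPM per poly(A) cluster. Since each transcript gives a single tag at its end, levels of different genes were compared without scaling by length. Low values stood on steps of 0.319, 0.308, 0.257 and 0.164 TPM in Col0 replicates 1 and 2 and cpsf70 replicates 1 and 2. Taken as the value of a single read, these steps give about 3137209, 3248601, 3883756 and 6092363 reads, and 71.1 to 79.1% of the values were whole multiples within 0.01 read. With steps of 0.0821 to 0.159 TPM, 78.7 to 86.1% were whole, so the depth is known only to within a factor of 2. Gene levels of the Col0 pair correlated with r = 0.911 across genes and those of the cpsf70 pair with r = 0.932, against 0.854 to 0.899 between genotypes, with 0 identical values. Both cpsf70 tables carry the same internal name and list the same 29896 clusters. The Col0 tables and that of cpsf70 replicate 2 start at 3 TPM, whereas 5944 clusters of cpsf70 replicate 1 lie below 3 TPM. Every cluster listed for cpsf70 thus held at least 3 TPM in replicate 2. The 2 cpsf70 libraries are therefore not separate observations of which clusters are present. In the authors' deposited table of RNA-seq values the mutated locus AT1G30460 had FPKM of 5.58 and 4.87 for the wild type and of 0.542 and 0.593 for the mutant. That table lists 168 preselected genes and 0 of the 44 members.

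The 40S genes were abundant and uneven within their families. Mean levels over the 4 libraries ran from 9.27 TPM for AT4G30800, an S11 gene, to 395 TPM for AT5G20290, an S8 gene. The median of the 41 members was 113 TPM, against 15.9 TPM over the 10389 genes with a cluster in all 4 tables, and 36 of the 41 were among the 3463 genes above a mean of 26.3 TPM, called the most abundant genes here. The other 5, AT5G15520, AT3G52580, AT3G57490, XW6 and AT4G30800, had means between 9.27 and 15.4 TPM. In bulk seedlings, fewer cells that use a gene and less RNA per cell cannot be told apart. The grouping of loci by protein follows the usual Arabidopsis nomenclature, since the RefSeq table names the protein for only 12 of the 44 loci, and loci without a name are given by their identifier.

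Among the platform and messenger-path proteins, the SA gene P40 (AT1G72370), a homologue of the mammalian laminin receptor protein, stood at 167 and 168 TPM in Col0 and at 255 and 214 TPM in cpsf70. Its paralogue RPSAb (AT3G04770) had no cluster in any table. For S2, AT2G41840 gave 166 and 139 TPM in Col0 and then 242 and 221 TPM in cpsf70, while AT3G57490 gave 10.2 and 7.70 TPM and 13.6 and 10.3 TPM. A single gene therefore gave most S2 tags of the members in every library. For S14, AT2G36160 stood at 165 and 115 TPM in Col0 and at 260 and 194 TPM in cpsf70. AT3G52580, also an S14 gene, stood at 18.9 and 9.30 TPM and at 18.8 and 13.5 TPM, with overlapping genotypes.

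The S2 family has 3 further loci on chromosome 1 that are not among the 44, AT1G58684, AT1G58983 and AT1G59359. Their strongest cluster had the same value at all 3 loci in each library, at 54.1 and 45.5 TPM in Col0 and at 40.8 and 29.6 TPM in cpsf70. Summed over all clusters the 3 loci overlapped between genotypes, for example AT1G58684 at 68.3 and 55.0 TPM in Col0 and at 72.8 and 55.3 TPM in cpsf70. Identical values at separate loci cannot tell the loci apart, and the sources used here do not say how reads with several matches were treated. In clusters that were whole multiples of a read lay 60.2, 57.4, 62.4 and 46.6% of the members' TPM, in the order of libraries above. Counted by cluster, 80.4, 76.5, 84.7 and 77.9% of the members' clusters were whole, against 78.6, 72.2, 79.1 and 71.1% of all clusters. A split of reads between paralogues was not tested.

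Body proteins held the genes with the highest levels, beside paralogues near the floor. The S8 gene AT5G20290 stood at 368 and 311 TPM in Col0 and at 506 and 394 TPM in cpsf70, and its paralogue AT5G59240 was listed only in cpsf70, at 4.63 and 3.12 TPM. The S9 gene AT5G15200 stood at 332 and 245 TPM in Col0 and at 422 and 403 TPM in cpsf70, and its paralogue AT5G39850 was listed only in Col0, at 5.42 and 4.0 TPM. Both minor genes lie close to the 3 TPM floor, so their absence from a table sets no level. The S11 gene AT4G30800 stood at 9.88 and 4.93 TPM in Col0 and at 10.6 and 11.7 TPM in cpsf70. S4, S6 and S24 were more even.

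For S6, the protein whose phosphorylation follows TOR kinase activity, RPS6 (AT4G31700) stood at 231 and 183 TPM in Col0 and at 304 and 263 TPM in cpsf70. EMB3010 (AT5G10360), the second S6 gene, stood at 170 and 142 TPM and at 208 and 188 TPM. Both S6 genes thus lay higher in both cpsf70 libraries than in either Col0 library. The S24 genes AT5G28060 and AT3G04920 were nearly level, at 242 and 181 TPM and at 220 and 174 TPM in Col0. In cpsf70 they stood at 281 and 271 TPM and at 276 and 261 TPM, again without overlap. Among the S4 genes, AT5G07090 ran from 209 TPM to 255 TPM over the libraries and AT5G58420 from 109 TPM to 139 TPM, with overlapping genotypes. RPS13A (AT4G00100), an S13 gene whose mutation gives pointed first leaves, also overlapped, at 215 and 199 TPM in Col0 and at 240 and 192 TPM in cpsf70.

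Among head proteins, RPS5A (AT3G11940), an S5 gene needed for embryo cell division, stood at 202 and 176 TPM in Col0 and at 277 and 223 TPM in cpsf70. RPS5B (AT2G37270) stood at 123 and 97.6 TPM in Col0 and at 114 and 91.6 TPM in cpsf70. RPS5A thus lay above both Col0 values in both cpsf70 libraries, whereas RPS5B overlapped. For S16, AT5G18380 stood at 221 and 163 TPM in Col0 and at 232 and 215 TPM in cpsf70, and AT2G09990 at 36.8 and 27.4 TPM and at 54.5 and 43.6 TPM. For S19, AT3G02080 ran from 189 TPM to 252 TPM and AT5G15520 from 9.85 TPM to 19.8 TPM.

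The S10 genes AT5G52650 and AT4G25740 both overlapped between genotypes, at 175 to 264 TPM and at 88.8 to 117 TPM. The S20 gene AT3G45030 stood at 73.3 and 46.2 TPM in Col0 and at 107 and 83.6 TPM in cpsf70. Its paralogue AT3G47370 stood at 50.4 and 45.7 TPM and at 55.5 and 49.2 TPM. The S28 genes were within a few fold of each other, led in Col0 by RPS28 (AT5G64140) at 125 and 101 TPM. AT1G34030, the leading S18 gene, stood at 161 and 131 TPM in Col0 and at 180 and 154 TPM in cpsf70, again overlapping.

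**Figure D1:**
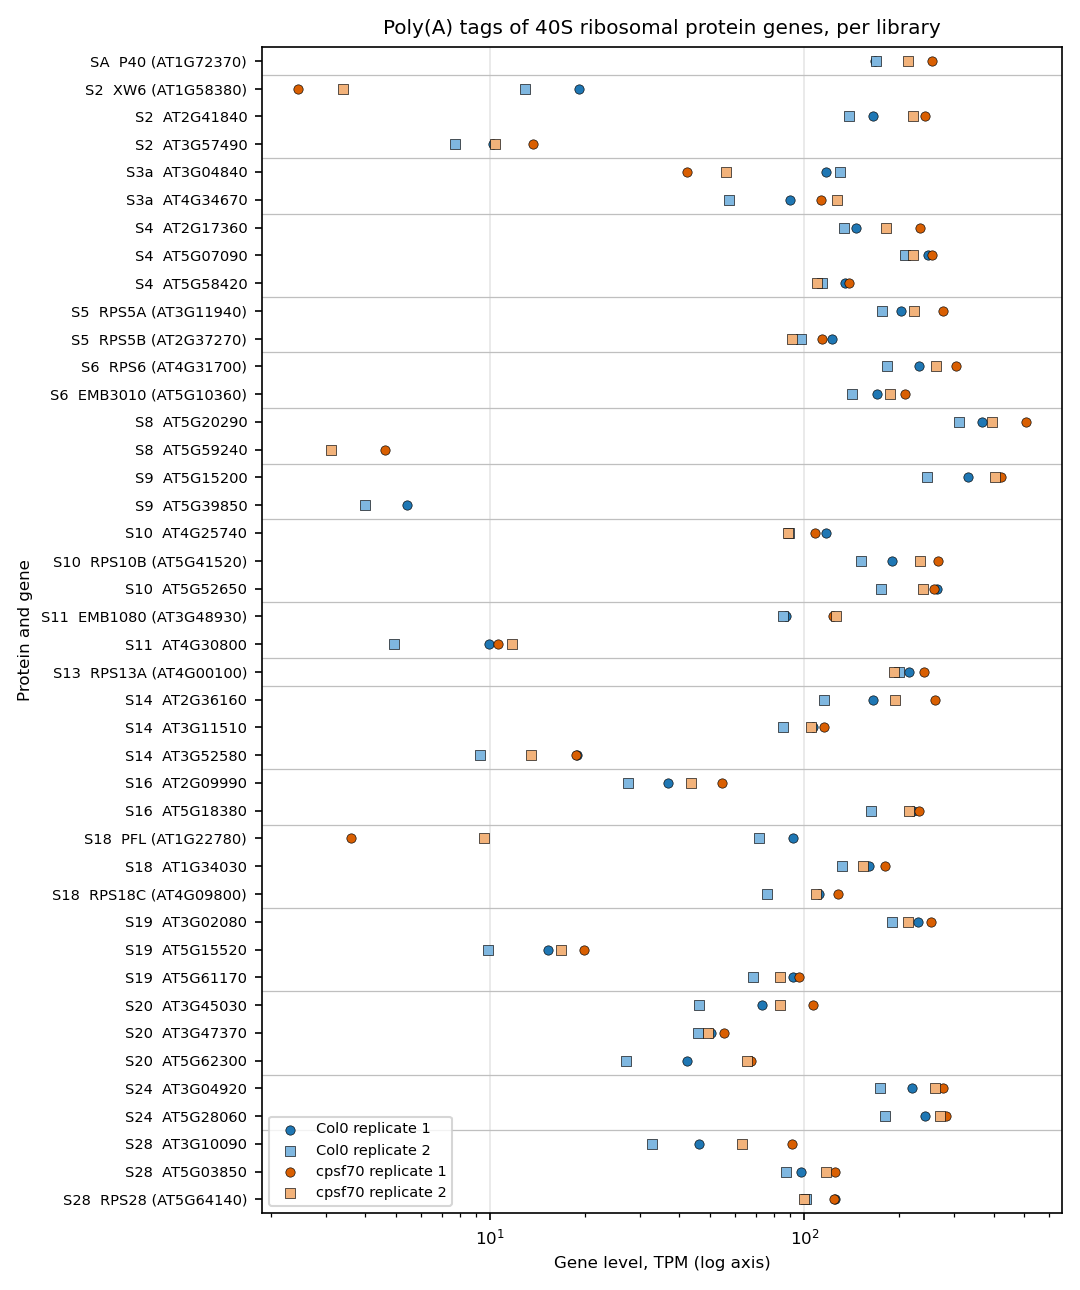
Level of 42 members with a poly(A) cluster, in TPM on a log axis, in the 2 Col0 libraries (blue) and the 2 cpsf70 libraries (orange), grouped by protein. Most members lie slightly to the right in cpsf70, while XW6, AT3G04840 and PFL lie to the left.

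The gene level comparison asks which 40S genes differed in abundance between cpsf70 and Col0. PFL (AT1G22780), the S18 gene whose loss gives pointed first leaves, and XW6 (AT1G58380), an S2 gene, were lower in cpsf70, and no member passed the test as higher. PFL stood at 92.1 and 71.9 TPM in Col0 and at 3.6 and 9.52 TPM in cpsf70. XW6 stood at 19.1 and 12.9 TPM in Col0 and at 2.45 and 3.41 TPM in cpsf70. In both genes the genotypes lay far apart. On the log2(TPM + 1) scale PFL fell by 3.57 (SE 0.487, adjusted p = 1.06e-10, limma) and XW6 fell by 2.1 (SE 0.487, adjusted p = 0.00131, limma).

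Thus 2 of 41 members passed the adjusted p of 0.05 as lower, against a background of 2.21% of the 10389 genes tested, and 0 of 41 as higher, against 0.424%. In either direction 2.64% of all genes passed. At an unadjusted p under 0.05, 3 members were lower and 0 higher. The fit gave every gene the same standard error, because limma found no differences in spread between genes. With TPM rescaled by median ratios, spreads differed and both calls were lost, with differences of −3.59 for PFL (adjusted p = 0.0932) and −2.13 for XW6 (adjusted p = 0.0753, limma). XW6 was also lost without cpsf70 replicate 1 (adjusted p = 0.128).

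AT3G04840, an S3a gene, was the next lowest. It stood at 117 and 129 TPM in Col0 and at 42.3 and 56.1 TPM in cpsf70, a difference of −1.32 (SE 0.487, adjusted p = 0.173, limma) that did not pass. It passed when clusters under 3 TPM were left out of every table (−1.58, adjusted p = 0.0162, limma).

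The other members differed little one by one, mostly with higher values in cpsf70. Of 41 members 34 had a higher mean log2 level in cpsf70, or 82.9%, against 52.6% of all genes tested and 60.1% of the most abundant genes. The members' median difference was 0.385, against 0.0275 over all genes tested and 0.0890 over the most abundant genes. Both cpsf70 libraries lay above both Col0 libraries in 22 of 41 members (background 21.2%) and below in 3 (background 19.7%). Other ribosomal protein genes, 48 of the 40S and 31 of the 60S subunit, were listed beside them. Of their 43 and 30 tested genes, 36 and 27 had a higher mean in cpsf70, with median differences of 0.234 and 0.337, and 0 passed the test in either direction. The members' median fell to 0.191 without Col0 replicate 2 and to 0.238 without cpsf70 replicate 1.

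The largest positive differences were in an S20 and an S28 gene. AT5G62300, the S20 gene, stood at 42.2 and 27.1 TPM in Col0 and at 67.3 and 65.7 TPM in cpsf70, a difference of 0.954 (SE 0.487, adjusted p = 0.60, limma). AT3G10090, the S28 gene, stood at 46.2 and 32.6 TPM in Col0 and at 91.4 and 63.3 TPM in cpsf70, a difference of 0.952 (SE 0.487, adjusted p = 0.604, limma). Neither passed the test, though in both genes the genotypes did not overlap.

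**Figure D2:**
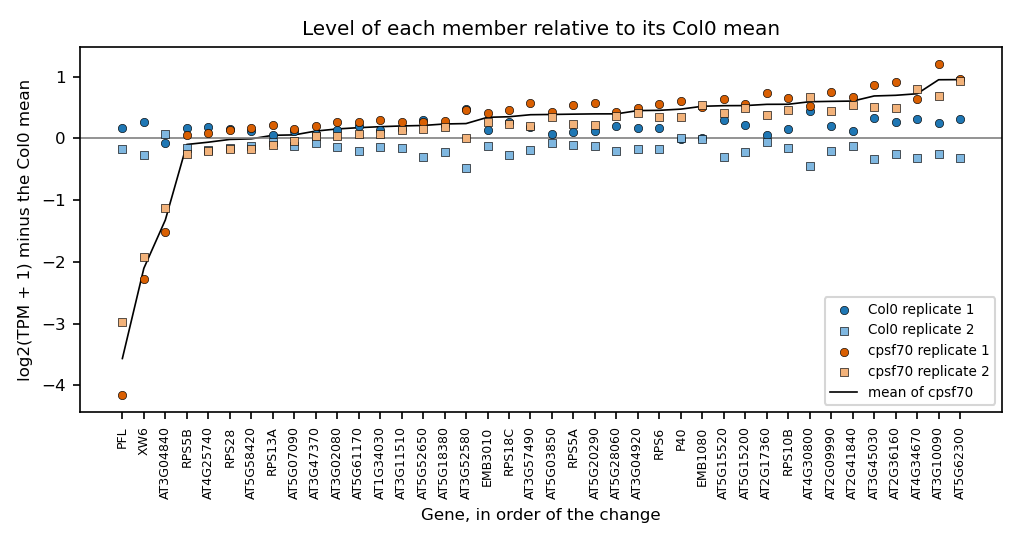
Level of each of 40 members in each library as log2(TPM + 1) minus the mean of the 2 Col0 libraries, with the mean of the cpsf70 libraries as a line. PFL, XW6 and AT3G04840 lie at −3.57, −2.1 and −1.32, and the other members lie between −0.10 and 0.954.

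The paralogue comparison asks how the members' tags for a protein divided among its member genes. No test was made, since an exact permutation of 2 against 2 libraries cannot give a 2-sided p below 0.333. Summed over the members of a protein, both cpsf70 libraries lay above both Col0 libraries for 11 of 18 proteins, below for 1 and overlapped for 6. No background was computed for sums of several genes. For single genes, 21.2% of all genes tested lay above in this way and 19.7% below. The sums hold the same members as the counts of single genes, so they add no separate result. The protein below was S3a, at 207 and 187 TPM in Col0 and at 155 and 183 TPM in cpsf70. S18 overlapped, at 365 and 279 TPM and at 311 and 272 TPM.

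Within S3a, AT3G04840 gave 56.7 and 69.2% of the tags in Col0 and 27.2 and 30.7% in cpsf70. Its paralogue AT4G34670 stood at 89.7 and 57.7 TPM in Col0 and at 113 and 127 TPM in cpsf70, so it led the protein in both cpsf70 libraries. Within S18, PFL gave 25.3 and 25.7% in Col0 and 1.16 and 3.50% in cpsf70. AT1G34030 went from 44.1 and 47.0% to 57.8 and 56.5%, and RPS18C (AT4G09800) from 30.6 and 27.2% to 41.0 and 40%. Shares within a protein sum to 100%, so a lower share of 1 gene raises the others. Within S2, XW6 gave 9.80 and 8.11% of the members' tags in Col0 and 0.947 and 1.45% in cpsf70. The S2 loci outside the members, AT1G58684, AT1G58983 and AT1G59359, were not counted in these shares.

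Shares also moved in S28 and S5. AT5G64140, the S28 gene RPS28, went from a mean of 46.2% (SD 0.671, n = 2) to 36.0% (SD 0.563, n = 2), while AT3G10090 went from 16.0% to 24.7%. In S5, RPS5A went from a mean of 63.3% (SD 1.48, n = 2) to 70.9% (SD 0.0659, n = 2). In S24 and S6 the mean share of each gene moved by at most 1.91 percentage points. The leading gene differed between genotypes in 3 of the 17 proteins with more than 1 member, S3a, S10 and S28. In S10 AT5G52650 led in Col0, and RPS10B (AT5G41520) led the cpsf70 mean at 41.8% against 41.7%. RPS10B led in cpsf70 replicate 1, at 42.1% against 40.8%, and AT5G52650 in cpsf70 replicate 2, at 42.7% against 41.5%.

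The poly(A) cluster comparison asks where the transcripts of the lowered genes ended. In PFL, XW6 and AT3G04840 the main 3′ end cluster of Col0 had no cluster over it in the cpsf70 tables, while small clusters further upstream were listed. For AT3G04840 the main Col0 cluster, at chr3:1331547-1331589 on the plus strand, held 110 and 121 TPM, or 93.7% of the gene. In cpsf70 the nearest clusters, at chr3:1331506-1331534 and chr3:1331603-1331651, held 5.15 and 3.61 TPM and 5.43 and 3.45 TPM.

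The gene listed 2 and 3 clusters in the Col0 tables and 11 in each cpsf70 table. Apart from those at the 3′ end, the cpsf70 clusters lay 211 to 1752.5 nt upstream of the annotated end and held between 1.16 and 14.0 TPM each. The strongest of them, at chr3:1330782-1330818, held 8.75 and 14.0 TPM in cpsf70, and its Col0 counterpart held 7.17 and 5.23 TPM. Tags over 100 nt upstream of the main Col0 cluster thus made up 6.11 and 4.05% of the gene in Col0 and 75 and 87.4% in cpsf70.

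For PFL the main Col0 cluster, at chr1:8069292-8069329 on the plus strand, held 74.0 and 58.9 TPM, and a second at chr1:8069254-8069288 held 18.2 and 12.9 TPM. The cpsf70 tables listed instead chr1:8068672-8068753 at 2.57 and 6.24 TPM and chr1:8069139-8069183 at 1.03 and 3.28 TPM. By the steps above, those 2 clusters hold 10 and 38 reads and 4 and 20 reads, and the main Col0 cluster 232 and 191.5 reads. For XW6 the single Col0 cluster, at chr1:21690235-21690274 on the plus strand, held 19.1 and 12.9 TPM, or 60 and 42 reads. The single cpsf70 cluster, at chr1:21689241-21689280, held 2.45 and 3.41 TPM, which equals 9.50 and 20.8 reads. With a step known only to within a factor of 2, the fractions of a read do not tell the origin of that cluster. Its assignment to XW6 beside the S2 copies on the same chromosome is uncertain and was not tested.

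**Figure D3:**
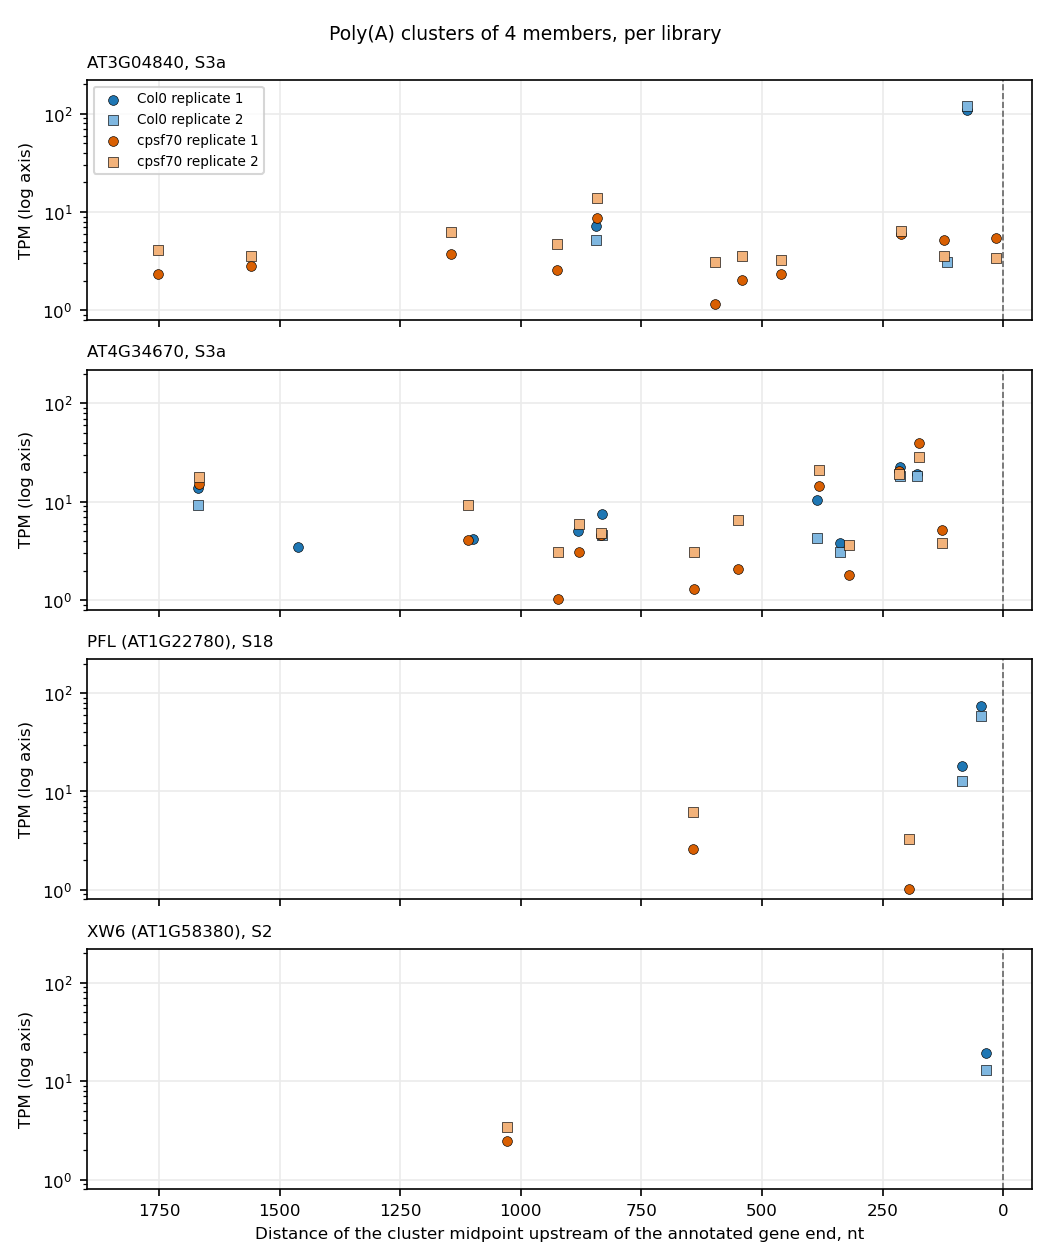
Poly(A) clusters of AT3G04840, its paralogue AT4G34670, PFL and XW6, as TPM on a log axis against the distance of the cluster midpoint upstream of the annotated gene end (dashed line), in each library. The dominant Col0 clusters of AT3G04840, PFL and XW6, at 74.0, 45.5 and 35.5 nt, have no cpsf70 cluster over them, whereas clusters of both genotypes coincide along most of AT4G34670.

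A main Col0 cluster without a cpsf70 cluster over it was found in 4 of 42 members, the fourth being AT5G39850 near the floor, against 27.6% of 14806 genes. Among clusters of at least 10 TPM it was 3 of 39 members, or 7.69%, against 8.11% of 6217 genes, so the members' share was near the background. All 4 cases lay among the 16 plus-strand members, or 25%, against 30.0% of all plus-strand genes. The 26 minus-strand members had 0, against 25.2%. Among main clusters of at least 10 TPM the members gave 3 of 14 on the plus strand and 0 of 25 on the minus strand. Over all genes with such a main cluster, the share was 11% on the plus strand and 5.38% on the minus strand. With a cpsf70 cluster within 24 nt counted as over it, the count was 3 members, since AT3G04840 has such neighbours, while XW6, PFL and AT5G39850 have none. The reverse, a main cpsf70 cluster with no Col0 cluster over it, was found in 3 of 42 members, or 7.14%, against 7.85% of 12138 genes. Cluster bounds were drawn once for each genotype, so absence from both cpsf70 tables is a single event. A missed call of a cluster was not tested.

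More clusters per 40S gene were listed in the cpsf70 tables, in part below the 3 TPM floor of the Col0 tables. The 41 members had on average 4.71 and 3.20 clusters in the Col0 tables and 7.46 in the cpsf70 tables, which list the same clusters. Over all genes the means were 2.39, 2.13 and 2.52. The cpsf70 tables listed more clusters than either Col0 table in 30 of 41 members (background 18.9%, and 36.9% of the most abundant genes). With clusters of at least 3 TPM it was 12 of 41 members, or 29.3%, against 9.23% of all genes, and cpsf70 replicate 1 then averaged 4.78 clusters. The median share of a member's tags over 100 nt upstream of its main Col0 cluster was 5.70 and 0% in Col0 and 9.08 and 19.8% in cpsf70. Col0 replicate 2 was lowest and cpsf70 replicate 2 highest.

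Both cpsf70 libraries exceeded both Col0 libraries in this share in 25 of 41 members, against a background of 22.4% over all genes and 44.5% over the most abundant genes. The reverse was seen in 0 of 41 members, against 2.74%. The reference was the strongest cluster of Col0 itself, so the measure can favour an excess in cpsf70, in members and background alike. Both cpsf70 libraries were also read at clusters that all held at least 3 TPM in cpsf70 replicate 2, so they are not separate listings. In 6 members, among them AT3G10090, AT5G15520 and AT4G30800, the share was 0% in all 4 libraries, as in 61.3% of all genes and 31.7% of the most abundant genes. With clusters under 3 TPM left out, 14 of 39 members exceeded, or 35.9%, against 16.4% of all genes and 32.5% of the most abundant genes. The medians were then 5.91 and 0% in Col0 and 5.31 and 18.8% in cpsf70, so cpsf70 replicate 1 lay below Col0 replicate 1. The cpsf70 medians averaged 11.6 percentage points above the Col0 medians, and 6.22 points without cpsf70 replicate 2.

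Examples cover several proteins. RPS6 had 16.0 and 9.73% of its tags upstream in Col0 and 22.3 and 33.5% in cpsf70. AT3G45030, the leading S20 gene, had 0% in both Col0 libraries and 10.3 and 23.2% in cpsf70. P40 had 5.91 and 4.11% in Col0 and 11.8 and 20.7% in cpsf70. In these 3 genes the genotypes did not overlap. AT4G34670, the S3a gene that led in cpsf70, overlapped, at 53.8 and 36.8% in Col0 and 42.2 and 59.3% in cpsf70.

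**Figure D4:**
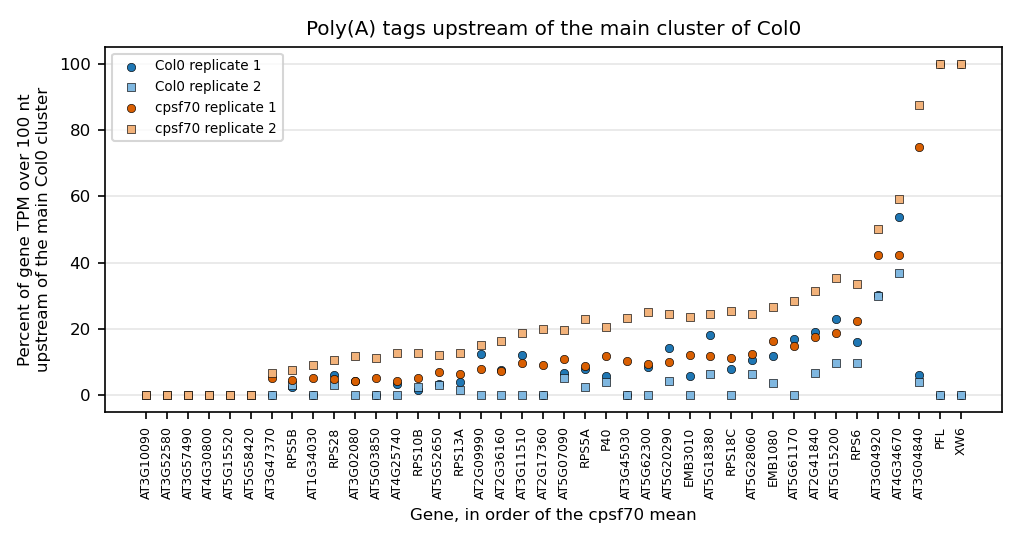
Percent of the TPM of each of 40 members that lies over 100 nt upstream of its main Col0 cluster, in each library, ordered by the cpsf70 mean. XW6 and PFL stand at 100% and AT3G04840 at 75 and 87.4% in cpsf70, and in most other members cpsf70 replicate 2 is the highest library.

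The mean poly(A) position, weighted by TPM, lay further upstream in cpsf70 in 37 of 41 members (90.2%), with a median shift of 43.3 nt. The share was 60.5% over all genes and 72.7% over the most abundant genes. Among the other 40S and 60S genes it was 88.4 and 93.3%, with median shifts of 24.3 and 41.2 nt. Both cpsf70 libraries lay further upstream than both Col0 libraries in 28 of 41 members (background 49%) and further downstream in 1 (background 27.7%). Over all 10373 genes tested the median shift was 4.38 nt and over the most abundant genes 17.4 nt. The members' shift was 19.9 nt without cpsf70 replicate 2 and 68.4 nt without cpsf70 replicate 1. With clusters under 3 TPM, which the Col0 tables do not list, left out of every table, it was 33.4 nt. In limma 5 of 41 members passed as further upstream, against 24.6% of all genes, and 0 as further downstream, against 18.2%. Because clusters were drawn once per genotype, a gene with 1 cluster has no spread within a genotype, and this test has little meaning for such genes.

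The passing members were XW6, PFL, AT3G04840, AT3G57490 and AT3G47370. XW6 had 1 cluster in every table and AT3G57490 had 1 in each Col0 table. Their positions had no spread there, so both calls have little meaning. The mean position lay 35.5 nt upstream of the annotated end in both Col0 libraries and 1029.5 nt in both cpsf70 libraries for XW6. For PFL it lay at 53.3 and 52.6 nt in Col0 and at 515 and 489 nt in cpsf70. For AT3G04840 it lay at 121 and 106 nt in Col0 and at 647 and 771 nt in cpsf70. Shifts were far smaller in the last pair of genes. AT3G57490, an S2 gene, went from 69.5 nt to 93.6 and 88.5 nt, and AT3G47370, an S20 gene, from 88.4 and 89.1 nt to 108 and 111 nt. AT2G41840 and EMB1080 (AT3G48930), with shifts of 126 nt (SE 84.4) and 115 nt (SE 45.8), did not pass. With clusters under 3 TPM left out, AT3G57490, the gene without spread in Col0, alone passed (adjusted p = 0.0208, limma). The calls of AT3G04840 and AT3G47370 were then lost (adjusted p = 0.114 and 0.228, limma), and PFL and XW6 could not be fitted. The calls of AT3G04840, AT3G47370 and AT3G57490 were lost without Col0 replicate 1 or Col0 replicate 2 (adjusted p between 0.0838 and 0.130, limma). Without cpsf70 replicate 1 or 2, 13 and 11 members passed.

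The site use comparison asks how tags divided between the 2 most abundant sites of a gene that were listed in all 4 tables. It could be made for 16 of the 44 members, and the distal site lost ground to the proximal site in AT3G04840. Its distal site, which spans all clusters from chr3:1331506 to chr3:1331651, held 110 and 124 TPM in Col0 and at 10.6 and 7.06 TPM in cpsf70. Its proximal site, at chr3:1330780-1330818, held 7.17 and 5.23 TPM in Col0 and at 8.75 and 14.0 TPM in cpsf70. The log2 ratio of distal to proximal was 3.77 and 4.33 in Col0 and 0.25 and −0.89 in cpsf70, and it fell by 4.37 (SE 0.498, adjusted p = 0.0332, limma). This call was lost without Col0 replicate 1 (adjusted p = 0.0674) or Col0 replicate 2 (adjusted p = 0.132, limma).

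It was 1 of 16 members past the threshold toward the proximal site, against a background of 0.562% of 1958 genes, and 0 members or genes passed toward the distal site (0%), where 0 members and 73 genes had an unadjusted p under 0.05. All 16 members had a negative difference, as did 1403 of all 1958 genes tested and 1053 of 1395 of the most abundant genes. The median over members was −0.68, against −0.40 over all genes tested and −0.48 in the most abundant genes. In 4 of 16 both cpsf70 libraries lay below both Col0 libraries, or 25.0%, against a background of 44.2%. The other 40S and 60S genes had medians of −0.72 and −0.67 over 13 and 19 genes, of which 12 and 16 were negative. The members' median was −0.33 without Col0 replicate 2 and −0.11 without cpsf70 replicate 2, −1.04 without Col0 replicate 1 and −1.18 without cpsf70 replicate 1. It was −0.05 with clusters joined around midpoints.

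Next in size were RPS10B, RPS13A, RPS5A and AT5G15200, none of which passed. RPS10B had log2 ratios of 5.48 and 4.89 in Col0 and 4.52 and 3.23 in cpsf70, a difference of −1.31 (SE 0.531, adjusted p = 0.270, limma). RPS13A had 5.33 and 5.60 in Col0 and 4.97 and 4.07 in cpsf70, a difference of −0.94 (SE 0.431, adjusted p = 0.296, limma). In both genes the genotypes did not overlap. RPS5A had 4.28 and 5.03 in Col0 and 4.80 and 2.96 in cpsf70, a difference of −0.77 (SE 0.667, adjusted p = 0.499, limma), and AT5G15200 had 3.18 and 3.84 and then 3.30 and 2.25, a difference of −0.74 (SE 0.492, adjusted p = 0.409, limma). Here the genotypes overlapped.

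The peak lists ask which 40S transcripts carry m6A and which are bound by CPSF70. Most carried both kinds of peak, with low m6A folds and with the midpoints of CLIP peaks close to the main poly(A) cluster. An m6A peak lay over 40 of 44 members in both Col0 replicates, or 90.9%, against 72.1% of the 10389 genes with clusters. A CLIP peak lay over 35 of 44 in both replicates, or 79.5%, against 44.1% of all genes and 61.2% of the most abundant genes. Peaks of both assays in both replicates were found on 33 members, m6A alone on 7, CLIP alone on 2 and neither on 2. The 60S genes gave 93.5% for m6A and 74.2% for CLIP and the other 40S genes 87.5% and 75%.

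The folds in the peak lists are the authors' values. The strongest m6A peak of a member had a median fold of 2.78 in replicate 1 and 2.90 in replicate 2, against 4.11 and 5.42 over all genes with a peak and 3.21 and 3.92 over the most abundant genes. A fold of at least 4 in both replicates was found on 1 of 44 members, AT4G30800, against 39.3% of all genes and 20.5% of the most abundant genes. Other ribosomal protein genes had like medians, 2.73 and 2.80 for the other 40S genes and 2.75 and 2.68 for the 60S genes. AT4G30800 had folds of 4.46 and 10.4. AT3G10090 had folds of 4.0 and 5.30 and AT5G15520 folds of 3.88 and 5.81.

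CLIP folds were higher. The strongest CLIP peak of a member had a median fold of 5.70 and 5.51, against 4.66 and 4.90 over all genes with a peak and 5.24 and 5.33 over the most abundant genes. EMB1080, an S11 gene whose loss is embryo-defective, had folds of 10 and 11.6. AT3G11510, an S14 gene, had 9.72 and 10.7, and AT5G15200, the main S9 gene, had 9.72 and 10.4. In PFL the folds were 5.94 and 6.24. In AT3G04840 they were 5.70 and 5.40, at different places along the gene. XW6 had a CLIP peak only in replicate 2, with a fold of 2.91.

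The strongest CLIP peak lay a median of 23.0 and 20 nt upstream of the main Col0 cluster, against 131 and 88.5 nt over all genes with a peak. It lay within 100 nt of that cluster in 30 of 37 members in replicate 1 (81.1%) and 33 of 37 in replicate 2 (89.2%). Over all genes with a CLIP peak the same shares were 39.2 and 46.5%, and over the most abundant genes 43.4 and 50.7%. Among the other 40S genes they were 86.1 and 75% and among the 60S genes 57.7 and 68%. The strongest m6A peak lay a median of 201 and 141 nt upstream of the cluster, and within 100 nt in 1 of 42 and 6 of 40 members. Over all genes with a peak the m6A medians were 161.5 and 133 nt. These are distances of midpoints, and the members' m6A peaks had median lengths of 412 and 346.5 nt against 60 and 65 nt for CLIP, so a long peak that reaches the end has its midpoint well upstream. Of the members' CLIP peaks, 42 of 60 in replicate 1 and 37 of 54 in replicate 2 touched an m6A peak of the same replicate number, or 70 and 68.5%. Of all CLIP peaks on the nuclear chromosomes 37.6 and 41.2% did. That background also holds CLIP peaks of genes without m6A and was not limited to abundant or other ribosomal protein genes.

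**Figure D5:**
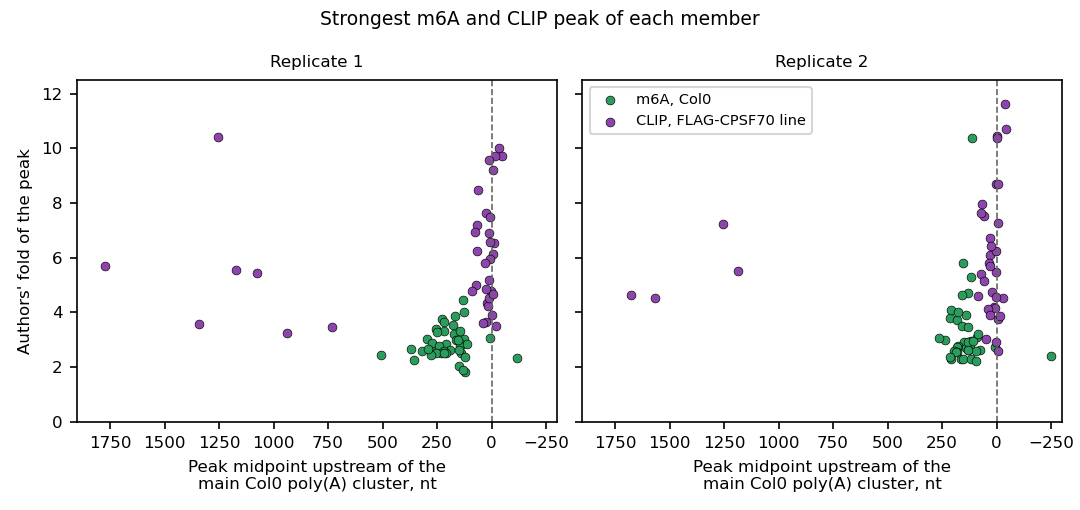
Strongest m6A peak (green, Col0) and CLIP peak (purple, CPSF70 overexpression line) of each member, as the authors' fold against the distance of the peak midpoint upstream of the main Col0 poly(A) cluster (dashed line), for each replicate. CLIP peaks crowd at the cluster with medians of 23.0 and 20 nt, and the midpoints of the longer m6A peaks lie further upstream with medians of 201 and 141 nt.

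The 3 genes with a level below Col0 in both cpsf70 libraries carried m6A and CLIP peaks. In PFL the strongest CLIP peaks lay 5.50 and 3.50 nt upstream of the main Col0 cluster, and in AT3G04840 1771.5 and 72.5 nt upstream. The AT3G04840 peak at 1771.5 nt in replicate 1 had no overlapping peak in replicate 2. A weaker replicate 1 peak, 43.5 nt upstream with a fold of 2.11, overlapped the replicate 2 peak. The m6A folds were 2.04 and 3.22 in PFL, 2.62 and 2.74 in AT3G04840 and 2.79 and 3.47 in XW6. These m6A folds lay within the range of the other members. The 34 tested members with CLIP peaks in both replicates had a median level difference of 0.369 and the other 7 one of 0.389. No test was made of this split. Peaks carry no strand, and the CLIP samples of Col0 were not analysed here, so peaks in the absence of the FLAG tag were not set beside these.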

How the data were processed

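Transcript ends were sequenced by A-seq2, m6A by antibody enrichment and CPSF70 contacts by formaldehyde CLIP, per the labels' protocols. MACS2 2.2.5, HISAT2 2.1.0, cutadapt 1.18 and the TAIR10 build are listed in the submitters' processing notes, without order or settings. The authors deposited TPM per poly(A) cluster, and for peaks a fold and a −log10 p-value, per the file headers. Their RNA-seq table gives FPKM, a fold and a p-value for preselected genes, as deposited. The control behind the peak calls is not given in these sources, though names inside the CLIP tables mention Col0 and input. Replicates of CLIP are numbered by sample title, although those names have 1 and 2 swapped.

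Gene spans came from RefSeq (TAIR10.1), and strand was inferred from the poly(A) tags, 16 members on the plus and 27 on the minus strand. Clusters were summed per gene. For site use, clusters were joined where at most 24 nt lay between them. Gene level, site use and mean position were tested with limma 3.58.1 (R 4.3.3) on log2(TPM + 1), on log2((distal + 1) / (proximal + 1)) and in nt, 2-sided with Benjamini-Hochberg adjustment over all genes, threshold 0.05, no block. The pseudocount understates changes of low values. The scripts were tested on simulated data.

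Named genes are the members that passed a test, the 5 largest differences per measure, the most and least abundant gene of each protein and the 3 highest folds per assay. The examples of upstream tags, RPS18C and the S2 copies were chosen after their values were seen. The values of 1 member are not reported here on their own or drawn by gene, though its values enter the counts and medians. The members and lists were chosen with earlier results of these data known. The upstream share, the number of clusters and the main-cluster overlap were added after seeing the data. Alternatives are in the closing section. No genome sequence was used.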

Additional observations from a re-analysis of the deposited data

How the results depend on the processing

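For the gene level, 44 genes passed as higher and 230 as lower. Rescaling by median ratios gave 3 and 37, a robust fit 122 and 359, absent values taken as 0 gave 428 and 1228, and sites in all 4 tables gave 25 higher. Members called lower numbered 2. After rescaling they numbered 0, with a mean of at least 10 TPM 1 (PFL, as XW6 falls under that mean), and with clusters of at least 3 TPM or sites in all 4 tables there was 1 (AT3G04840, as PFL and XW6 could not be fitted). Also, 1 member was higher with absent values as 0. The members' median difference was 0.305 with sites in all 4 tables. Leaving out each library in turn gave 18 to 60 genes higher, 104 to 227 lower, 1 to 2 members lower and medians of 0.191 to 0.519.

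For site use, 0 genes passed toward the distal site and 11 toward the proximal site. A pseudocount of 5 gave 2 distal, a gap of 10 nt gave 4 distal, a robust fit gave 6 distal and 24 proximal, joining around midpoints gave 186 and 354 with 2 members distal, and absent values as 0 gave 133 and 188 with 3 members proximal. Leaving out each library gave 0 to 6 genes distal, 0 to 39 proximal and 0 to 1 members proximal. The difference of RPS5A (AT3G11940) ran from -1.69 to 0.147 when each library was left out, reversed without cpsf70 replicate 2, and was 0.172 with a gap of 10 nt, and that of RPS10B (AT5G41520) to 0.108 with midpoints. For mean position, a mean of at least 10 TPM gave 1006 and 691 genes in place of 2554 and 1885, clusters of at least 3 TPM gave 1 member in place of 5, and leaving out each library gave 3 to 13 members upstream and 0 to 1 downstream. With an m6A fold of at least 4, 1 member had a peak in both replicates in place of 40.

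Col0 and cpsf70 libraries share replicate numbers only. With the replicate number as a block, gene level calls were 0 higher and 3 lower with 0 members (limma adjusted p = 0.135 for PFL and 0.142 for XW6, at the same differences), site use calls 11 distal and 47 proximal, and 2 members passed in mean position. Deviations of same-numbered libraries correlated with 0.257 for level, 0.155 for position and 0.0845 for site use. Peaks and paralogue shares were not analysed in pairs. Where a setting changed a value, the cause was not tested. Of the values that answer a comparison 184 stayed within their limits and 55 moved, and of single genes 200 stayed, 18 lost and 3 gained a call. Members with more clusters in cpsf70 numbered 12 in place of 30 with clusters of at least 3 TPM, and 30 to 33 when each library was left out. The alternatives to the upstream share, to the number of clusters and to the main-cluster overlap were chosen after seeing the data.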
